A study of Homo sapiens with 2 samples.

Results

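The genes described here lie on the distal long arm of chromosome 1, in bands 1q24 to 1q44, and were read in both subclones of HMC1, an established human line from a mast cell leukaemia. The list held 58 genes, chosen from the differences between these same arrays, and 52 of them could be measured out of 19775 genes on the array. A gene was measured by the probe sets whose annotation named it alone, and the set with the highest mean log2 value stood for it. UCK2 was left out because both of its probe sets also carry the name of a microRNA gene, and POU2F1, MPZL1, NME7, RNF2 and ADSS2 were not named by the annotation used here. Cells had been sorted on surface CD2, a T cell adhesion receptor that neoplastic mast cells can also carry, and 1 Affymetrix U133 Plus 2.0 array was hybridised with total RNA of the CD2-expressing subclone and 1 with that of the subclone devoid of it. No treatment is named for either. Each subclone is 1 derivative of 1 line, and with 1 sample per group no difference below has a replicate check, an error between cultures or a p-value.

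Genes that are neighbours on a chromosome need not share a function, and these do not: they encode chromatin regulators, RNA helicases, nuclear pore proteins, kinases, pumps and metabolic enzymes. What joins them is place. As background, the RNA of many genes follows the number of DNA copies of the segment that carries them, and long-arm segments of chromosome 1 are often gained in blood cancers. DNA copy number was not measured in these samples, and its part in the values below was not tested.

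The values are RMA intensities, a normalised brightness per probe set, and a difference is the log2 value of the CD2-positive minus that of the CD2-negative array, so a negative value means lower in the CD2-positive subclone. CD2 itself, on the short arm of chromosome 1, read 219 and 13, which follows the labels. Of 12 measured mast cell markers 10 reached an intensity of 64, among them KIT at 1373 and 1328, with CMA1 at 2 and 2 and FCER1A at 27 and 8, and their intensities summed to 16481 and 11357, the CD2-positive sample first as in every pair of values here. No measured T and NK cell, B cell, monocyte or stromal marker of the list reached 64. Among erythroid and megakaryocyte markers ITGA2B did, at 88 and 106. The Bacillus control sets, with no human target, read 1 to 4, which gives the background. The median of both arrays was 4. All 18 control sets for hybridisation were dimmer in the CD2-positive sample (median difference -0.18), and their part in the differences below was not tested. Setting those controls to 0 would move the median of all compared genes from -0.05 to 0.14.

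Most of the distal 1q genes read lower in the CD2-positive subclone. Of the 52 measured genes 44 were lower, 2 were equal and 6 were higher, and the median difference was -0.30, a 1.23-fold lower intensity. The differences ran from -1.01 for TFB2M to 0.30 for ATP1B1, and the quartiles were -0.52 and -0.11. At least 1.2-fold lower were 29 genes, and 1, ATP1B1, was at least 1.2-fold higher. Over all 19775 genes, where most values are near background and 7207 differences are exactly 0, 33.7% were below 0 and 19.0% were at least 1.2-fold lower. These values chose the list, so they describe it and support nothing.

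An intensity of 64 on at least 1 array, a log2 value of 6, was the floor for comparing genes, and 34 of the 52 genes reached it. Of these 31 were lower and 3 higher, with a median of -0.33. Among all 3564 genes at this floor, 55.7% were lower and the median was -0.05. At least 1.2-fold lower were 21 of the 34 genes against 21.4% of all compared genes, and none was 1.2-fold higher against 15.7%. At least 1.5-fold lower were 7 against 3.82%, and TFB2M and SUCO were at least 2-fold lower against 0.758%. Of the 34 genes 11 reached the floor on the CD2-negative array only, so they had to differ, and 6 of the 7 genes at least 1.5-fold lower (TFB2M, SUCO, ADIPOR1, KDM5B, PIGC and TIPRL) are among them, ARID4B being the other. Where the mean of both arrays had to reach the floor, which does not favour a direction, 27 of 30 genes were lower. Their median was -0.30 against -0.04 over all genes at that floor, but only 4 were at least 1.5-fold and 1 at least 2-fold lower. Of all genes at that floor 55.6% were lower, 3.14% at least 1.5-fold and 0.40% at least 2-fold. Where both arrays had to reach it, 20 of 23 were lower, 1 at least 1.5-fold and none 2-fold. The shares of all genes there were 55.2%, 2.42% and 0.17%. As a gauge of probe behaviour only, over 937 genes the differences of the 2 brightest probe sets above the floor departed from each other with a standard deviation of 0.13 per probe set. It holds no spread between cultures or hybridisations.

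**Figure D1:**
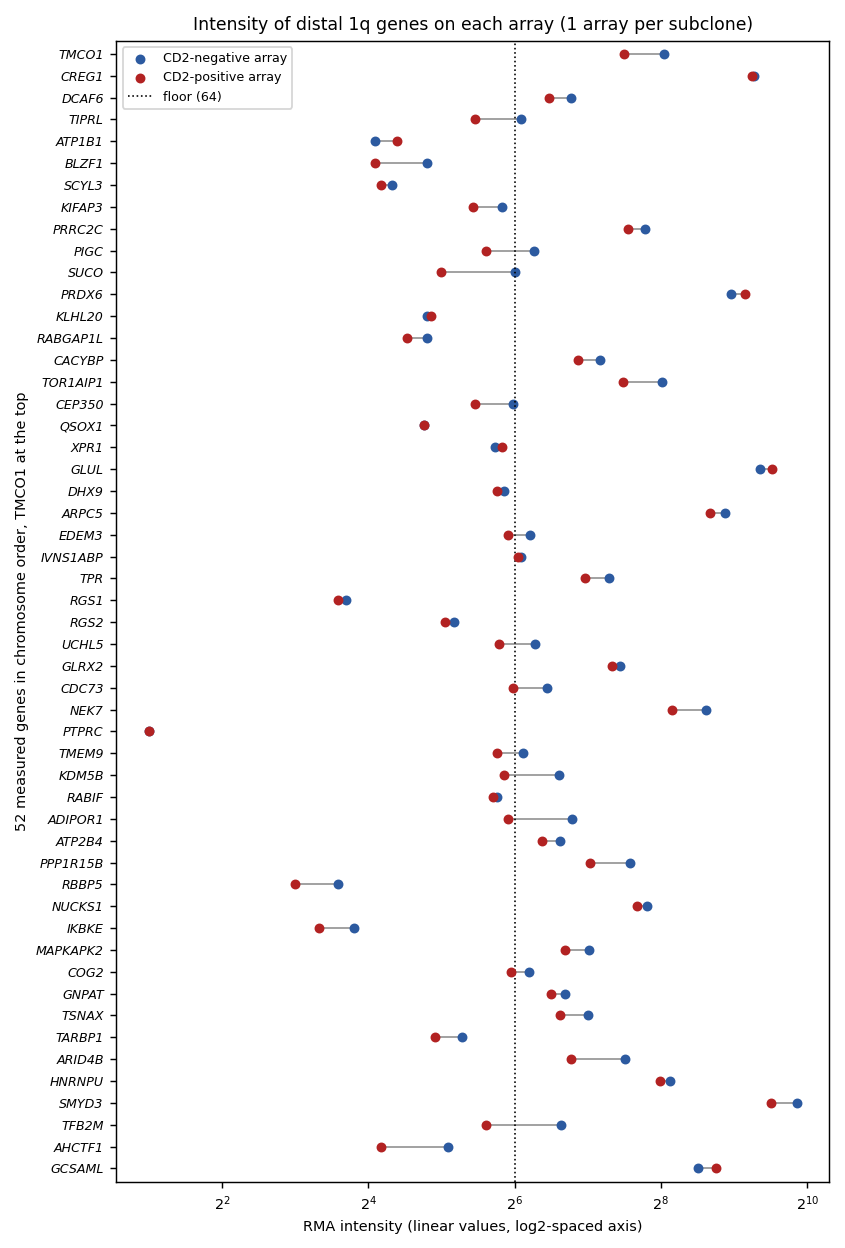
RMA intensity (log2-spaced axis) of the 52 measured distal 1q genes, in chromosome order from TMCO1 to GCSAML; blue points are the CD2-negative and red points the CD2-positive array, and the dotted line is the floor of 64. In 44 genes the red point lies to the left of the blue one, and in 6 genes (ATP1B1, PRDX6, KLHL20, XPR1, GLUL and GCSAML) it lies to the right.

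The start regions of these genes were described by their CpG dinucleotides and by 5 short motifs. RefSeq start regions (GRCh38.p14, 250 bases before to 50 after the start, first listed start) were found for 53 of the 58 genes. They held a median of 24 CpG dinucleotides, against 26 over 3047 compared genes and 14 over all 27305 genes with an entry. Across the 47 measured genes with an entry, the CpG count had no visible relation to the difference, with a Pearson's r of -0.04 and a Spearman's rho of -0.04, given as a description across genes. The 4 start regions below show the range: TFB2M and KDM5B, among the lowest genes on the CD2-positive array, GLUL, higher there and CpG-rich, and GCSAML, higher there and CpG-poor. Capitals mark matches on either strand to TATAAA (the TATA box), CCAAT (the CCAAT box), GGGCGG (a GC box), CGGAAG (an ETS-type core) or CACGTG (an E-box). No other motif was searched.
TFB2M (chr1:246566212-246566511, minus strand): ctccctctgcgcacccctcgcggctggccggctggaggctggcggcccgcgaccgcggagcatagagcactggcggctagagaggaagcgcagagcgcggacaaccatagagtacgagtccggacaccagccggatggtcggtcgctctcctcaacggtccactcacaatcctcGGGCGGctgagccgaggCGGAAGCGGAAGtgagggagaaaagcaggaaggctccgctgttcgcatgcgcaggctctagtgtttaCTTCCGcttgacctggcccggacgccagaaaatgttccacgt
KDM5B (chr1:202808372-202808671, minus strand): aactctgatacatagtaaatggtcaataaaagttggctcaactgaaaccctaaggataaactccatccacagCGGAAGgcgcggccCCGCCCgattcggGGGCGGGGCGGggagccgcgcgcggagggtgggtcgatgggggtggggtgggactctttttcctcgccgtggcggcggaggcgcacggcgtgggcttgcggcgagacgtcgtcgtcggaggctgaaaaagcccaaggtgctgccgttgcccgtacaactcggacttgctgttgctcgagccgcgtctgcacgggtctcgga
GLUL (chr1:182391741-182392040, minus strand): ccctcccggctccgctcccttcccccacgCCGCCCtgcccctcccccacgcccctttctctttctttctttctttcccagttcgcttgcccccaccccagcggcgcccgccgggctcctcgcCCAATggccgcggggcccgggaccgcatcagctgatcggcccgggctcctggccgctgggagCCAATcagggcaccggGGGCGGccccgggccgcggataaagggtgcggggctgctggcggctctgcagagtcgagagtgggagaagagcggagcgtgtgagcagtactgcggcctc
GCSAML (chr1:247506808-247507107, plus strand): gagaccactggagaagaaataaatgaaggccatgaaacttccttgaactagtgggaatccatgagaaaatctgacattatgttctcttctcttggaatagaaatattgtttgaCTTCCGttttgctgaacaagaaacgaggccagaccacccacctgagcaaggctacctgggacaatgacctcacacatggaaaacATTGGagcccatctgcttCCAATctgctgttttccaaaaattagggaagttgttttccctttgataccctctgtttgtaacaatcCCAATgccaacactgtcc

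TFB2M and KDM5B hold 31 and 34 CpG dinucleotides and both GGGCGG and CGGAAG, GLUL holds 29 with CCAAT and GGGCGG, and GCSAML holds 2 with CCAAT and CGGAAG. Of the 53 start regions 35 held GGGCGG, 66.0% against 70.8% of those of compared genes and 44.6% of all. CGGAAG was in 26, 49.1% against 39.0% and 19.9%, and CCAAT in 21, 39.6% against 39.1% and 35.7%. CACGTG was in 4, 7.55% against 11.8% and 7.43%. TATAAA was in 2, those of RGS1 and BLZF1, 3.77% against 6.24% and 12.0%. A match describes these letters only.

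By role, counts are over measured genes whatever their level, so they stand beside the 33.7% lower and 19.0% at least 1.2-fold lower of all 19775 genes and the 44 and 29 of the 52 listed genes, which were chosen for such values. All 9 measured transcription and chromatin genes read lower in the CD2-positive subclone, with a median of -0.47, and 7 were at least 1.2-fold lower. KDM5B, a demethylase that removes methyl groups from the tail of histone H3, read 58 and 97 (-0.74). Its 3 probe sets above an intensity of 16 gave nearly the same difference, from -0.75 to -0.71. ARID4B, a DNA-binding subunit of the SIN3 histone deacetylase complex, read 109 and 182 (-0.74), and its second set read 23 and 32. CDC73, which encodes parafibromin of the PAF1 elongation complex, read 63 and 87 (-0.47). Of its other sets, one at 17 and 20 was lower too, and one at 17 and 16 was not. UCHL5, a deubiquitinase of the proteasome and of the INO80 chromatin remodeller, read 55 and 78 (-0.50). SMYD3, a lysine methyltransferase, was the brightest of the group at 724 and 929 (-0.36). DCAF6, a substrate receptor of a CUL4 ubiquitin ligase, read 89 and 109 (-0.29). NUCKS1, a nuclear DNA-binding phosphoprotein, read 205 and 225 with its brightest set (-0.13), but its 5 other sets at 16 or more gave lower values, from -0.54 to -0.39. RBBP5, a core subunit of the histone methyltransferase complexes called COMPASS, lay near background at 8 and 12, where 1 unit is a large step. CREG1, grouped here as a repressor of E1A-stimulated genes although its protein is secreted and lysosomal, was nearest to 0 at 607 and 620 (-0.03). With the hybridisation controls set to 0, NUCKS1 and CREG1 turn positive.

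The 6 genes grouped here under nuclear envelope, pore and mitosis were all at least 1.2-fold lower, with a median of -0.53. SUCO, a membrane protein with a SUN domain, read 32 and 64, 2-fold lower, from its only probe set, and it reached the floor on the CD2-negative array alone. TOR1AIP1, the inner nuclear membrane protein LAP1, read 178 and 259 (-0.54), and its other sets at 16 or more gave -0.61 and -0.43. NEK7, a mitotic kinase also needed for the NLRP3 inflammasome, read 284 and 392 (-0.46) from 1 probe set. CEP350, a centrosome protein, read 44 and 63 (-0.52), just under the floor, and its 3 sets at 16 or more lay between -0.57 and -0.47. AHCTF1, which encodes ELYS, the protein that seeds nuclear pores on chromatin, read 18 and 34 (-0.92), below the floor on both arrays. TPR, the filament protein of the pore's nuclear basket, was nearest to 0 at 125 and 156 (-0.32). Its second set, at 81 and 77, had the opposite sign (0.073), so its direction depends on the probe set. With the hybridisation controls set to 0 its brightest set is at -0.14, short of 1.2-fold.

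The 6 RNA-binding and processing genes all read lower, though only 2 of them by 1.2-fold or more, and the median was -0.19. TSNAX, which with translin forms a small-RNA nuclease, read 98 and 128 (-0.39). TARBP1, a tRNA methyltransferase, read 30 and 39 (-0.38), below the floor. PRRC2C, a protein of stress granules, read 188 and 221 (-0.23), and its 4 sets at 16 or more lay between -0.31 and -0.20. HNRNPU, an abundant nuclear RNA-binding scaffold protein, read 254 and 280 (-0.14) with a set whose identifier marks possible cross-hybridisation, and its next set read 128 and 177 (-0.47). The other members of the group had probe sets of both signs. DHX9, RNA helicase A, read 54 and 58 (-0.10), while its other sets read 56 and 45 and 30 and 19, higher on the CD2-positive array. IVNS1ABP, a kelch protein that binds an influenza virus protein, read 66 and 68 (-0.04), and its other sets at 16 or more were slightly higher on that array. HNRNPU and IVNS1ABP turn positive with the hybridisation controls set to 0.

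Signalling genes went mostly but not all one way: of 13 measured, 10 were lower, 1 was equal and 2 were higher, with a median of -0.28. ADIPOR1, an adiponectin receptor, had the largest difference at 60 and 110 (-0.87) from 1 probe set. TIPRL, which binds phosphatase catalytic subunits, read 44 and 68 (-0.63), but its second set read 33 and 33. PPP1R15B, which directs the phosphatase that removes the stress mark from eIF2alpha, read 131 and 191 (-0.54) from 1 set. MAPKAPK2, the kinase downstream of p38 that stabilises cytokine mRNA, read 103 and 130 (-0.34), and its 3 sets at 16 or more were all lower. CACYBP, a calcyclin-binding ubiquitin ligase adaptor, read 117 and 144 (-0.30), with its other sets at 16 or more at -0.57 and -0.43. GCSAML, the last gene of the list along the chromosome, was higher in the CD2-positive subclone at 431 and 363 (0.25), from 1 set. The other 7 lay below the floor. RABGAP1L, a Rab GTPase activator, read 23 and 28, the pseudokinase gene SCYL3 18 and 20, and the ubiquitin ligase adaptor gene KLHL20 29 and 28. IKBKE, an interferon-inducing kinase, read 10 and 14, and its other set read 9 and 8.

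Of the leukocyte signalling genes on the list, PTPRC was at the level of the Bacillus controls and RGS1 and RGS2 were below the floor in both subclones. PTPRC encodes CD45, the tyrosine phosphatase present on most white blood cells, and 4 of its 5 probe sets read 2 and 2 and the fifth 2 and 1. RGS1, a GTPase activator that damps chemokine receptor signals, read 12 and 13 with its brightest set, 4 and 4 with the next and 2 and 1 with the third. RGS2, a relative that lies near it and acts on Gq-coupled receptors, read 33 and 36 from 1 set. The differences of RGS1 and RGS2, -0.12 and -0.13, are no larger than the probe-set spread of 0.13. That spread was taken from genes above the floor and was not measured at such low intensities.

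Of 10 genes for membrane proteins, pumps and ER and Golgi traffic, 8 were lower and 2 higher, with a median of -0.27. TMCO1, an ER calcium channel and the first gene of the list along the chromosome, read 181 and 263 (-0.54), and of its 4 sets above the floor 3 lay between -0.54 and -0.41 and 1, at 71 and 73, gave -0.04. PIGC, an enzyme of the first step of GPI anchor synthesis, read 49 and 77 (-0.65). TMEM9, a lysosomal membrane protein, read 54 and 69 (-0.35), and EDEM3, an ER mannosidase, 60 and 74 (-0.30). ATP2B4, a plasma membrane calcium pump, read 83 and 98 (-0.24), and COG2, a Golgi tether subunit, 62 and 73 (-0.24). BLZF1, a golgin, read 17 and 28 (-0.72), the largest difference of the group but below the floor, and the Rab chaperone gene RABIF read 52 and 54 (-0.05). Both members that were higher lay below the floor. XPR1, the phosphate exporter, read 57 and 53 (0.10). ATP1B1, the beta-1 subunit of the sodium pump, read 21 and 17 (0.30), and its other set 18 and 11.

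Redox and metabolic genes were the group nearest to 0, with a median of -0.05 over 6 measured genes, of which 3 were lower, 1 was equal and 2 were higher. TFB2M, a transcription factor of mitochondrial DNA, was the exception at 49 and 99, 2.02-fold lower (-1.01). It passed the floor on the CD2-negative array only, and its other probe sets were at background. PRDX6, a peroxidase that also has phospholipase A2 activity, was higher in the CD2-positive subclone at 570 and 496 (0.20), and its second set read 220 and 173 (0.35). GLUL, glutamine synthetase, was also higher at 733 and 657 (0.16), with all 4 of its sets above 0, up to 0.56. GNPAT, an enzyme of plasmalogen synthesis, read 90 and 103 (-0.19), and GLRX2, a mitochondrial glutaredoxin, 161 and 173 (-0.10), which turns positive with the hybridisation controls set to 0. QSOX1, a sulfhydryl oxidase, read 27 on both arrays. Among cytoskeletal genes, ARPC5, a subunit of the actin-nucleating Arp2/3 complex, read 409 and 470 (-0.20) and its second set 140 and 201 (-0.52), and KIFAP3, the accessory subunit of kinesin-2, read 43 and 57 (-0.41), below the floor.

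Where several probe sets measured a gene, they mostly shared its sign. Of the 11 genes with more than 1 set above the floor, the 2 brightest had the same sign in 10, TPR being the exception, and the second sets had a median of -0.41. At an intensity of 16 or more, 26 genes had several sets: in 17 all were below 0, in 3 (ATP1B1, PRDX6 and GLUL) all were above 0, and in 6 (CDC73, DHX9, IVNS1ABP, KLHL20, TIPRL and TPR) they were not all of 1 sign. Over all 51 sets above the floor that name a listed gene, 44 were below 0. The sets share the same 2 hybridisations, so they are not replicates.

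**Figure D2:**
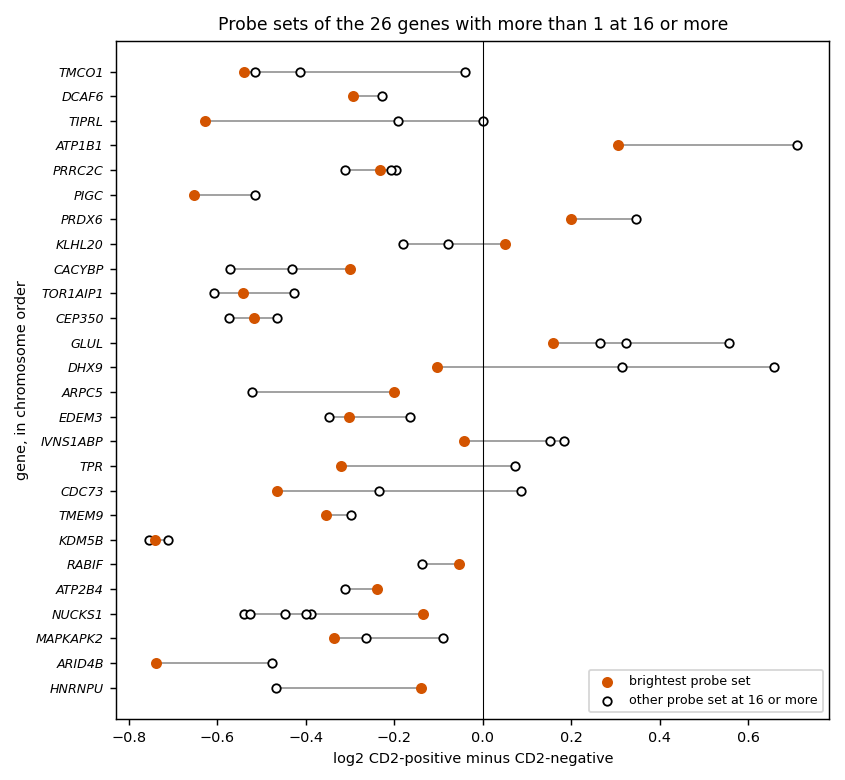
Log2 difference (CD2-positive minus CD2-negative) of every probe set reaching 16 on at least 1 array, for the 26 listed genes with more than 1 such set; filled points are the brightest set and open points the others. The sets of KDM5B lie together near -0.74, those of GLUL and PRDX6 lie to the right of 0, and those of TPR and DHX9 lie on both sides.

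Among the 34 genes above the floor the brighter genes lay nearer to 0 or above it, with a Pearson's r of 0.58 and a Spearman's rho of 0.51 across genes, while over all 52 the values were 0.12 and 0.09. Both are descriptions of genes on the same 2 arrays, and a floor on the higher array admits dim genes when they differ.

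The interval between TMCO1 and GCSAML also holds genes that were not listed, and most of those above the floor read lower too. Of 83 such genes 75 were lower and 8 higher in the CD2-positive subclone, with a median of -0.34 (1.27-fold). At least 1.2-fold lower were 54. The shares of all compared genes were 55.7% lower and 21.4% at least 1.2-fold lower. Some of the 83 passed on the CD2-negative array alone and had to be lower. With the floor on the mean of both arrays 64 of 71 were lower (median -0.33), against 55.6% of all genes. With it on both arrays 54 of 61 were lower (median -0.31), against 55.2%. The lowest were ATF3, a stress-induced transcription factor gene, at 50 and 146 (-1.55), MR1, which presents microbial metabolites to T cells, at 31 and 64 (-1.05), and IER5, an immediate early gene, at 362 and 638 (-0.82). TSEN15, of the tRNA splicing endonuclease, read 59 and 100 (-0.76), and COQ8A, of coenzyme Q synthesis, 50 and 82 (-0.71). Of these 5 only IER5 reached the floor on both arrays. The others passed on the CD2-negative array alone, so they had to be lower. The highest were LAX1, a lymphocyte adaptor gene, at 272 and 183 (0.57), the metallothionein-like pseudogene MT1HL1 at 197 and 151 (0.38), whose sequence is close to that of other metallothioneins, and TRAF5, a TNF receptor adaptor gene, at 64 and 51 (0.33). PPP2R5A, a phosphatase subunit gene, read 139 and 121 (0.20), and CD55, a complement regulator gene, 447 and 398 (0.17). TRAF5 passed the floor on the CD2-positive array alone, so it had to be higher.

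The listed genes fall into a first block of 26 compared genes from TMCO1 to MAPKAPK2 and a second of 8 from COG2 to GCSAML, with medians of -0.33 and -0.30. Between the blocks lie 33 compared genes, none of them listed. Of these 29 were lower, against 55.7% of all compared genes, and the median of the 33 was -0.39. Some of the 33, ATF3 and COQ8A among them, passed the floor on the CD2-negative array alone and had to be lower. TRAF5 passed on the CD2-positive array alone. In gene order, every one of the 103 windows of 15 consecutive compared genes within the interval had a median below 0, from -0.46 for MR1 to NEK7 to -0.13 for SLC45A3 to PPP2R5A. Neighbouring windows share genes and are not independent. No compared gene followed GCSAML.

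**Figure D3:**
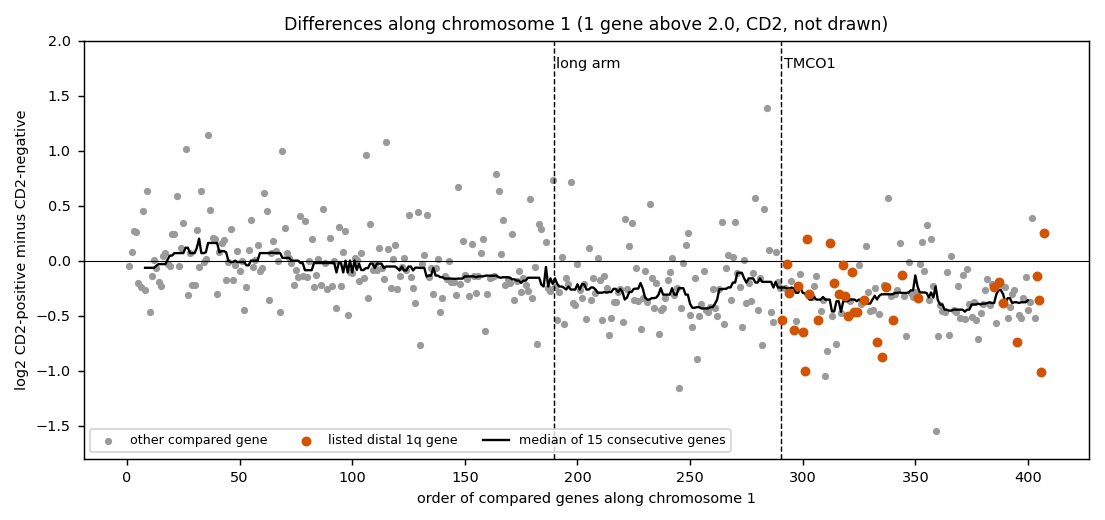
Log2 difference of all compared genes of chromosome 1 except CD2, against their order along the chromosome; orange points are the listed distal 1q genes, grey points other genes, the black line is the running median of 15 genes, and dashed lines mark the start of the long arm and TMCO1. The line drifts below 0 before the long arm begins and stays below 0 along all of it.

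The lower values did not begin at TMCO1. The nearest compared gene before it, ALDH9A1, an aldehyde dehydrogenase gene, read 120 and 143 (-0.25). Of 101 compared genes of the long arm before TMCO1, 80 were lower, with a median of -0.26, and the 87 windows of 15 genes that lie wholly there also had medians below 0, from -0.43 to -0.11. With the floor on the mean of both arrays 73 of 94 genes there were lower (median -0.26), against 55.6% of all genes. The start of the long arm was taken as the widest gap between gene starts on the chromosome. On the short arm 103 of 189 compared genes were lower, with a median of -0.05, and 121 of 175 windows were below 0, from -0.20 to 0.20. Compared genes of other chromosomes had a median of -0.03, with 53.7% lower. By chromosome the medians ran from -0.33 for X to 0.04 for 16, and chromosome 1 as a whole, at -0.18, was lower than all others but X and 18 (-0.25). The shift of the listed genes is thus shared by the rest of the long arm and is not particular to them or to chromosome 1. No test of these differences between places is possible with 1 array per subclone.

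**Figure D4:**
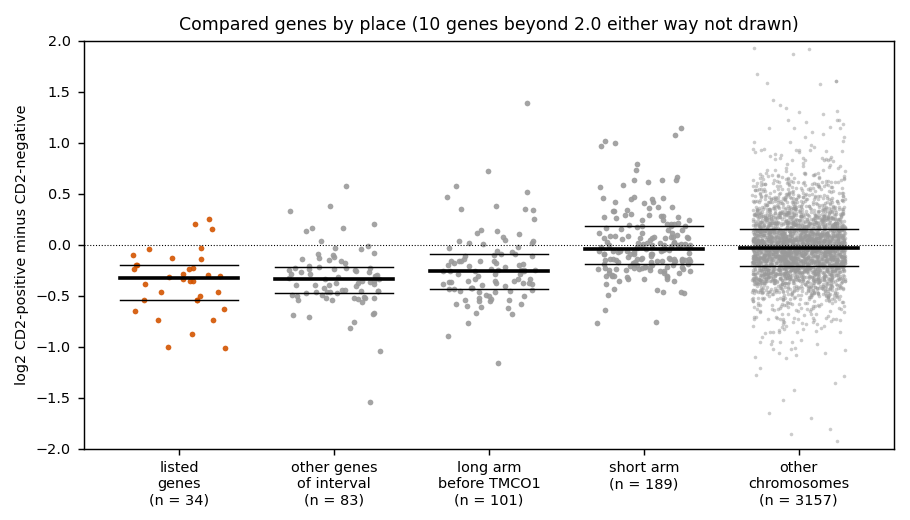
Log2 difference of compared genes by place, each point a gene; thick lines are medians and thin lines quartiles. The medians are -0.33 for the listed genes, -0.34 for other genes of the interval, -0.26 for the long arm before TMCO1, -0.05 for the short arm and -0.03 for other chromosomes.

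Many of the encoded proteins work in complexes or families whose other members lie on other chromosomes. Those partners that reached the floor had a median close to that of all compared genes. Over 49 partners above the floor, of 119 measured, 28 were lower and 21 higher, with a median of -0.04 that becomes 0.14 with the hybridisation controls set to 0, when the median of all compared genes also becomes 0.14. None was 1.5-fold different. Of 11 listed genes above the floor that could be set beside such partners, 10 read lower than all their compared partners on other chromosomes. The exception was TPR. KDM5B, TSNAX and PIGC had only 1 such partner each. Partners on chromosome 1 are outside this count. Of those above the floor, PRDX1 (-0.34) read lower than PRDX6 (0.20) and PSMD4 (-0.52) slightly lower than UCHL5 (-0.50). NUP133 (-0.40) read lower than TPR (-0.32). HDAC1 and RBBP4 read higher than ARID4B, and S100A6 higher than CACYBP. KDM5B, CDC73, UCHL5 and PIGC had passed the floor on the CD2-negative array alone, so they had to be lower on the other array. The same holds for the partners KDM5A, SIAH2, ASH2L and NUP133. SEH1L, IKBKB and RBBP4 passed on the CD2-positive array alone, so they had to be higher there. For PRDX6 the gap to the nearest partner, PRDX3, was well within the probe-set spread, and its second set (0.35) lay above both PRDX3 and PRDX4. No larger than that spread were also the gaps of ARPC5 to ARPC5L (-0.20 and -0.16), CACYBP to SIAH2 (-0.30 and -0.19) and CDC73 to CTR9 (-0.47 and -0.34). The spread is per probe set, so a gap between 2 sets varies more. By that measure the gap of TSNAX to TSN (-0.39 and -0.22), only slightly larger, is not clear either. The second sets of ARPC5 and CACYBP were lower, at -0.52 and -0.43, and that of CDC73, below the floor, was at -0.23. Over all 17 measured genes with compared partners on other chromosomes, those below the floor included, 13 read lower than every such partner. ATP1B1, RGS1 and RGS2 read higher than theirs. Partners of RNF2 count among the 49 although RNF2 itself was not measured. The partner lists of COG2, ATP2B4 and KIFAP3 had no gene above the floor, so they are not among the 49. COG2 was at -0.24. Below the floor, its partners COG3 at 20 and 40, COG6 at 21 and 31 and COG1 at 33 and 47 had lower differences than COG2, and COG4, COG5, COG7 and COG8 had higher ones. The listed genes were chosen for low values, so this describes which subunits they are and is no evidence of a difference.

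ARID4B was at -0.74, and none of its SIN3 partners above the floor was below 0. Below the floor they were mixed. SIN3A, SIN3B and BRMS1 read lower, at 24 and 27, 16 and 20 and 27 and 33, and SUDS3, SAP130 and ING1 higher, at 16 and 15, 38 and 37 and 26 and 22. Above the floor the values were as follows. The chromatin reader gene ING2 read 103 and 74 (0.48), SAP30 88 and 69 (0.35), the histone chaperone gene RBBP7 159 and 142 (0.16) and the deacetylase gene HDAC2 77 and 74 (0.06). On the short arm of chromosome 1, HDAC1 read 270 and 204 (0.40) and RBBP4 64 and 50 (0.36). KDM5B was at -0.74, and its relative KDM5A read 57 and 67 (-0.23). CDC73 was at -0.47, and its PAF1 complex partners CTR9 and SKIC8 read 192 and 243 (-0.34) and 101 and 103 (-0.03). RBBP5, itself near background, has the COMPASS partners ASH2L at 63 and 68 (-0.11), DPY30 at 115 and 138 (-0.26), SETD1B at 77 and 81 (-0.07) and CXXC1 at 121 and 114 (0.09). RNF2 belongs to Polycomb repressive complex 1, which silences genes, and of its partners RING1 read 133 and 120 (0.15), RYBP 153 and 140 (0.13), PCGF5 101 and 103 (-0.03), PHC1 108 and 117 (-0.12) and, on chromosome 1, PHC2 87 and 87.

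UCHL5 was at -0.50, and its receptor on the proteasome, ADRM1, read 117 and 119 (-0.02). The remodeller genes INO80, RUVBL1 and RUVBL2 read 66 and 68 (-0.04), 103 and 102 (0.01) and 108 and 95 (0.18). PSMD4, the proteasome's ubiquitin receptor, is on the long arm before TMCO1 and read 256 and 367 (-0.52). Of the nuclear pore genes on other chromosomes, 9 were compared, and their median was -0.09. SEC13 was lowest at 180 and 245 (-0.44), followed by NUP98 at 120 and 150 (-0.32), NUP153 at 174 and 202 (-0.22), NUP43 at 69 and 80 (-0.21), NUP50 at 115 and 122 (-0.09) and NUP54 at 143 and 149 (-0.06). NUP85 read 74 and 72 (0.04), NUP62 124 and 103 (0.27) and SEH1L 64 and 46 (0.48). NUP133, a pore gene that lies within the interval, read 53 and 70 (-0.40). ARPC5 was at -0.20 with its brightest set, and the 6 other Arp2/3 genes ran from -0.16 to 0.29. They were ARPC5L at 92 and 103, ARPC3 at 437 and 481, ARPC2 at 1106 and 1143, ARPC1A at 91 and 86, ARPC1B at 246 and 230 and ACTR3 at 792 and 646.

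The signalling and enzyme partners were mixed in sign. PPP1R15A, the stress-induced relative of PPP1R15B, read 191 and 198 (-0.05), and the phosphatase catalytic subunit genes PPP1CA, PPP1CB and PPP1CC read 182 and 168 (0.12), 289 and 357 (-0.30) and 271 and 301 (-0.15). CACYBP binds SIAH2, which read 56 and 64 (-0.19), SKP1, at 659 and 658, and calcyclin itself, S100A6, at 885 and 806 (0.13), whose gene is on chromosome 1. Kinases related to IKBKE or joined to their complex were TBK1 at 114 and 134 (-0.23), IKBKB at 67 and 53 (0.34) and IKBKG at 66 and 86 (-0.38). RGS10, a GTPase activator related to RGS1 and RGS2, read 201 and 245 (-0.29). TSN, translin, read 108 and 126 (-0.22), and PIGP, which works with PIGC, 102 and 105 (-0.04). The sodium pump subunit gene ATP1B3 read 201 and 185 (0.12). The peroxiredoxin genes PRDX3 and PRDX4 read higher in the CD2-positive sample, at 145 and 125 (0.21) and 119 and 95 (0.33), as PRDX6 did (0.20). PRDX1, on the short arm of chromosome 1, read 808 and 1020 (-0.34).

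**Figure D5:**
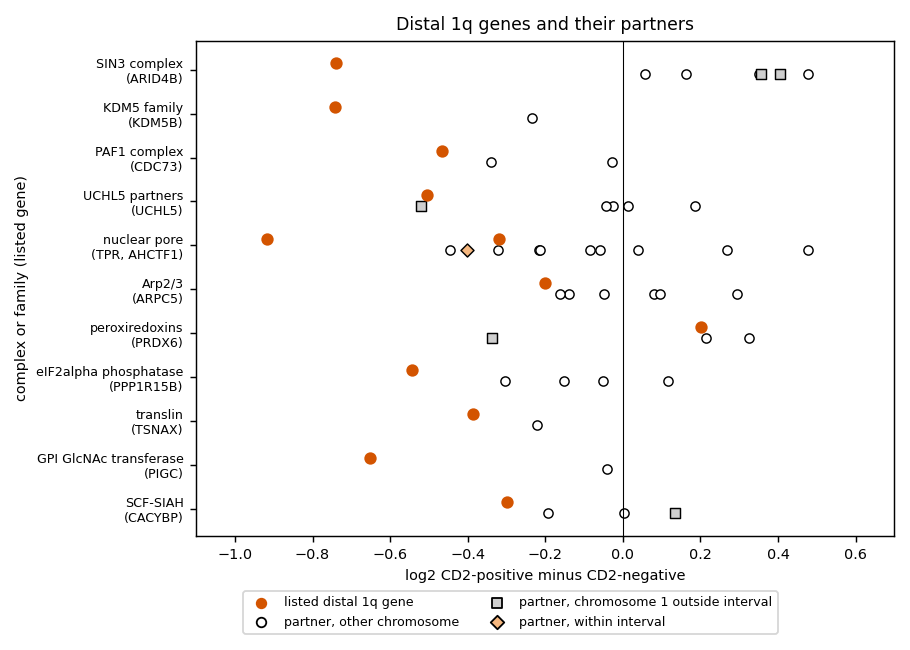
Log2 difference of listed genes (filled orange) and of the partners above the floor of the same complex or family, by complex; open circles are partners on other chromosomes, squares those on chromosome 1 outside the interval and the diamond NUP133 within it. ARID4B at -0.74 is farthest from its partners, all of which lie above 0, and PRDX6 lies above 0 with PRDX3 and PRDX4.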

How the data were processed

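Total RNA of 1 CD2-positive and 1 CD2-negative HMC1 sample was hybridised to U133 Plus 2.0 arrays. Per the submitters' processing notes, the authors made the deposited intensity values by RMA, run in version 1.1 of Affymetrix Expression Console. The values themselves are linear and whole, and the type of background correction is not stated. RMA gives both arrays 1 distribution of probe signal, so it removes any shift shared by all genes, and rounding makes low values coarse.

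Of 54675 probe sets, 41097 carried 1 gene symbol in the platform annotation, 1801 several and 11777 none. Symbols were updated, and genes ordered, with the RefSeq gene table of GRCh38.p14. The files name no build, so the only coordinates given are those of the printed start regions, which are of GRCh38.p14. Values were converted to log2. The floor, 3 steps of size (1.2-fold, 1.5-fold and 2-fold), windows of 15 genes and the lists of roles, partners and markers are described with the results. The genes and lists were chosen with earlier results of these data known. Both intensities are given for the named genes by a written rule: listed genes at least 1.5-fold different, at or above 0, below the floor, first and last in order, or farthest from and nearest to 0 in a role group, and 6 leukocyte genes; other genes of the interval at least 2-fold different and the 5 lowest and 5 highest; and partners above the floor. Other listed genes, ALDH9A1 and NUP133 complete the account. Python 3.11.15, numpy 2.4.6, pandas 2.3.3, statsmodels 0.14.6 and matplotlib 3.10.9 were used. The alternatives, given in the closing section, were other floors, other choices of probe set, other centrings and removal of a lowess trend against mean level (span 0.3).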

Additional observations from a re-analysis of the deposited data

How the results depend on the processing

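With 1 array per subclone nothing below has a replicate check, and no paired analysis was possible because each group holds 1 array. The median difference of the listed genes stayed negative under all 11 alternatives, from -0.41 to -0.15, and that of the other genes of the interval under all but 1. With no floor the latter was 0.00 over 470 genes, most of them near background. A value counts as moved here when it changes by more than the probe-set spread of 0.13, and a count when it changes by more than 1.5 times. The main counts over 34 listed genes were 31 below 0 and 21, 7 and 2 at least 1.2-fold, 1.5-fold and 2-fold lower. Stricter floors and probe-set rules measured fewer listed genes, and the floors stricter than the one used also took out genes that had passed on the CD2-negative array alone. In the same order, they were 16, 10, 1 and 0 of 19 at a floor of log2 7; 11, 7, 2 and 1 of 14 when a gene's probe sets were averaged; 13, 8, 2 and 1 of 14 with plain probe set identifiers; 8, 7, 2 and 0 of 11 with the second brightest set; and 20, 11, 1 and 0 of 23 with a floor on both arrays, an alternative chosen after seeing the data. Of all genes at these settings, in turn, 55.7%, 53.3%, 54.3%, 50.4% and 55.2% were below 0. At least 1.2-fold lower were 19.8%, 19.2%, 20.8%, 16.3% and 18.3% of them. With the floor on the mean of both arrays, 4 of 30 listed genes were at least 1.5-fold and 1 at least 2-fold lower, against 3.14% and 0.40% of all genes. No listed gene was 2-fold lower when centred on the median of compared genes or corrected by lowess (0 of 34 each). Centring on the hybridisation controls gave medians of -0.15 for the listed genes, -0.16 for the other genes of the interval and 0.14 for partners on other chromosomes, and 13, 3 and 0 listed genes past the 3 steps, while 26 of 34 stayed below 0. Of all compared genes 30.8% were below 0 under that centring, and 8.4% were at least 1.2-fold lower. With the second brightest set the other genes of the interval had a median of -0.18 over 19 genes, and TPR reversed to 0.073. Centring on the controls moves every gene by the same amount, so the distance of the listed genes from all compared genes does not change. Low signal limits PTPRC, RGS1, IKBKE and RBBP5 most.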

Other observations

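Some further genes of the interval are given here as values, picked after these were seen. RHEX, which encodes an adaptor of erythropoietin receptor signalling, read 948 and 1162 (-0.29). PTPN7, a leukocyte tyrosine phosphatase gene, read 175 and 239 (-0.45), and RASSF5, a Rap and Ras effector gene that acts in leukocyte adhesion, read 180 and 227 (-0.33). The complement regulator genes CD46 and CD55 lie close together and differed in sign, at 372 and 397 (-0.09) and at 447 and 398 (0.17). The difference of CD46 is smaller than the probe-set spread of 0.13, and with the hybridisation controls set to 0 both genes are above 0. Both aminoacyl-tRNA synthetase genes compared in the interval were lower, EPRS1 at 204 and 328 (-0.69) and IARS2 at 91 and 120 (-0.40). So were 75 of all 83 unlisted compared genes there, so lower values are not particular to this pair.

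On the long arm before TMCO1, 2 of 101 compared genes were at least 2-fold different, and they had opposite signs. Of all 3564 compared genes 27 were at least 2-fold lower and 43 at least 2-fold higher, so this is no unusual number. FCGR2B, which encodes an inhibitory IgG receptor, read 199 and 76 (1.39), though its sequence is close to those of FCGR2A and FCGR2C, and ENTREP3 read 46 and 103 (-1.16). ENTREP3 passed the floor on the CD2-negative array alone, so it had to be lower.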
